A study of Mus musculus with 2931 samples.

Results

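The circadian clock genes Clock, Arntl, Per1, Per2, Per3, Ciart, Nr1d1, Nr1d2, Dbp and Tef were followed in endothelial cells (EC) of the mouse lung. These 10 members, of the 18072 genes in the count table, were chosen by symbol. The list was selected on what earlier results of these data had shown over subtypes, days and hyperoxia, so their levels over those groups are a description. The cells came from the distal lung by flow sorting, each in its own well, and their libraries were cut with the Tn5 transposase, so that reads and not molecules are counted. The 2931 cells carried 10 mouse names, in 5 groups with 1 female and 1 male mouse each. Mice of the late embryonic stage E18.5 and mice of postnatal days 1, 7 and 21 (P1, P7, P21) had the treatment labelled normal, here called normal air, and a further pair of P7 mice had hyperoxia, meaning raised oxygen. Strain, genotype, oxygen level and length of exposure are not given in the labels, nor is it said whether a mouse name is 1 animal or a pool, so p-values measure the spread between mouse names. The labels give no hour of sampling. It may differ between mice, and since clock transcripts cycle over the day, the hour and the mouse cannot be told apart in any value below.

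As background, CLOCK and ARNTL (also called BMAL1) form a pair that binds E-box sequences and switches on Per1, Per2, Per3, Ciart, Nr1d1, Nr1d2, Dbp and Tef. PER proteins and CIART (also called CHRONO) repress that pair, NR1D1 and NR1D2 (REV-ERB alpha and beta) repress Arntl, and DBP and TEF bind D-box sequences in further target genes. In adult tissues, lung included, most of these transcripts rise and fall with the time of day, and Per1 is also induced quickly by stress and glucocorticoid signals.

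The promoter stretches of Ciart and Per3 are shown because the share of cells with a read, set against capillary cells, differed most upward for Per3 and most downward for Ciart among the members. RefSeq windows of 300 bases (250 before to 50 after a start) on GRCm38.p6 were held for all members but Per2, 14 windows of 9 genes, and both strands were searched for 4 motifs. The E-box CACGTG was in 4 of the 14 member windows, of Ciart, Per1 and Tef, against 7.15% of 32851 windows of all genes. The D-box TTATGTAA or TTACGTAA was in 1 of the 14, of Per3, against 1.06% of all windows. The variant E-box CACGTT was in 1 of the 14, of Nr1d1 (4.68% of all windows), and the nuclear receptor half-site AGGTCA in 4, of Arntl, Clock, Nr1d2 and Per1 (16.3%). A match describes the letters and is not a shown binding site. The capitals below mark the E-box in Ciart and the D-box in Per3, read 5′ to 3′ on the minus strand of both genes.
Ciart, 44 bases upstream, chr3:95882255-95882284: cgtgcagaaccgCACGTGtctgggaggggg
Ciart, 58 bases upstream, chr3:95882269-95882298: cgcagggggaggCACGTGcagaaccgcacg
Ciart, 116 bases upstream, chr3:95882327-95882356: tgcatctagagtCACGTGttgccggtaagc
Per3, 158 bases upstream, chr4:151044804-151044835: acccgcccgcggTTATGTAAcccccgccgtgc
Per3, 205 bases upstream, chr4:151044851-151044882: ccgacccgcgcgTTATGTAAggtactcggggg
The first and second Ciart stretches overlap. The window of Ciart thus held 3 copies of the E-box and that of Per3 held 2 copies of the D-box.

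Levels were taken from the most numerous class, as 1 sum of reads per mouse: Nonproliferative embryonic EC at E18.5 and Car4- capillaries at all other ages. Both are called capillary cells below, though the label of the embryonic class does not name capillaries. The 13 Car4- cells of the female E18.5 mouse were left out. The E18.5 sums thus differ from the later ones in label as well as in day. These sums held 29242793 to 195034861 reads from 116 to 272 cells. Single cells of the series held 42095 to 2967985 reads (median 621406), and levels are given as CPM, the reads of a gene over all reads of the sum times 1000000. The endothelial genes Pecam1, Cdh5, Kdr and Tek together stood at 2503 to 4338 CPM in these sums, and 9 marker genes of immune, epithelial and mesenchymal cells together at 40.1 to 214 CPM. Fewer cells that carry a transcript and less of it per cell cannot be told apart in a sum.

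Scaled to exon length, Ciart was the most abundant member (mean of 25.6 CPM per kilobase over 10 mice), followed by Per1 (7.83), Clock (3.59), Per3 (2.89), Nr1d2 (1.94), Tef (1.90), Nr1d1 (1.75), Arntl (1.34), Per2 (1.24) and Dbp (0.969). Below Ciart, neighbours in this order differed by less than their spread over mice. A read was found in 33.3% of 1752 capillary cells for Clock, 30.6% for Per1, 24.5% for Ciart, 15.5% for Per3 and 12.4% for Tef. The share was 10.9% for Nr1d2, 9.70% for Arntl, 7.59% for Nr1d1 and 5.76% for Per2. It was 2.05% for Dbp, or 36 cells, so that in the median mouse a single cell held 67.2% of its Dbp reads. A CPM of Dbp, Per2 or Nr1d1 therefore rests on few cells. Exons of Dbp overlap those of Sphk2 on the opposite strand over 539 bases (18.01% of its exon length), and exons of Nr1d1 overlap those of Thra over 263 bases (8.55%). Whether the counting used the strand is not given in the sources used here, so reads in these stretches may belong to either gene.

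**Figure D1:**
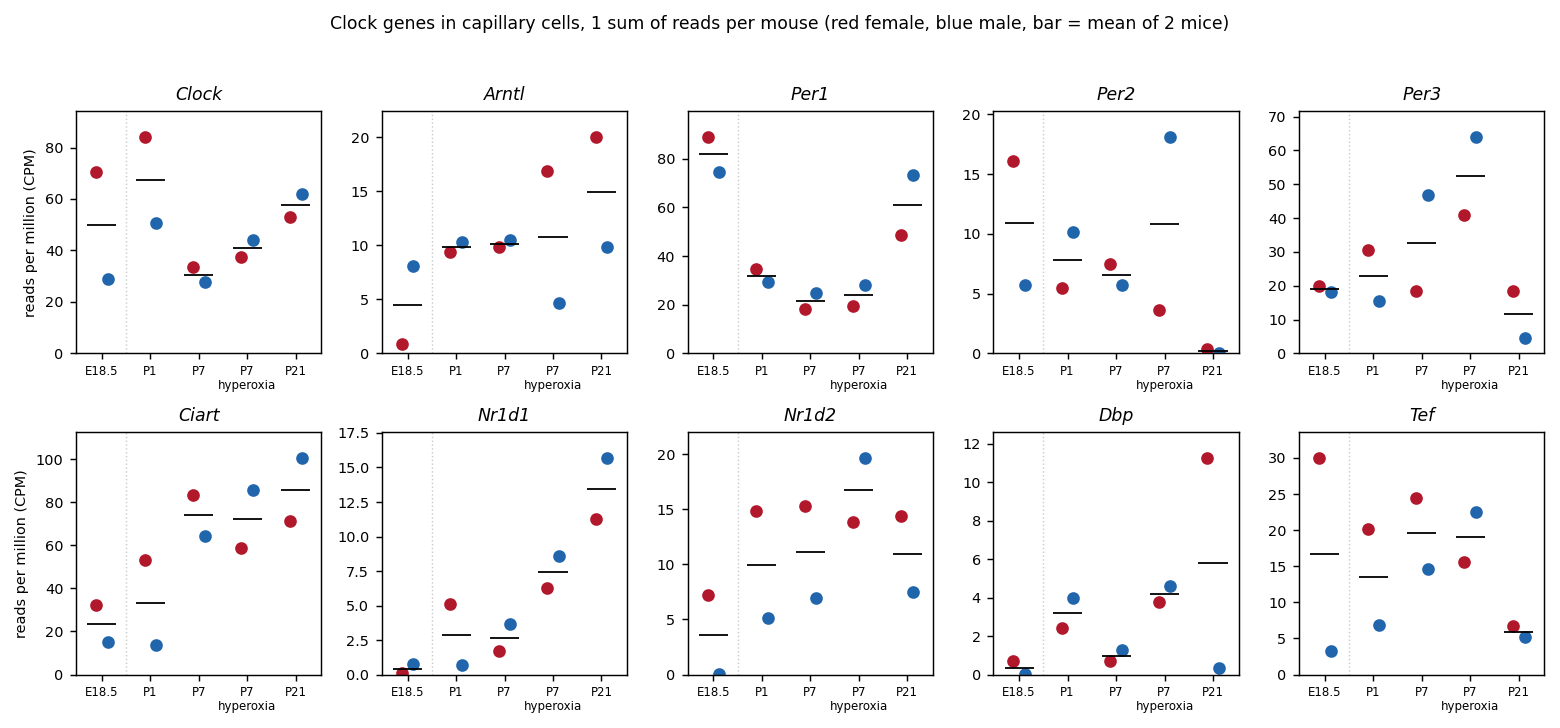
CPM of the 10 clock genes (vertical axes, linear and starting at 0) in the capillary sum of each of the 10 mice, by group (horizontal axes). Red points are female and blue points male mice, and the bar is the mean of the 2 mice; Per2 was at or under 0.374 CPM in both P21 mice, and Nr1d1 was highest in them.

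The activators were both expressed. Clock (chr5:76209868-76304792) stood at 27.8 CPM in the lowest mouse, 47.5 in the median and 84.1 in the highest. In the order female then male, it was at 70.6 and 29.1 CPM at E18.5, 84.1 and 50.7 at P1, 33.4 and 27.8 at P7, 37.3 and 44.2 at P7 in hyperoxia, and 53.1 and 61.9 at P21. Both P7 mice in normal air thus lay below both mice of P1 and of P21. Arntl (chr7:113207465-113314126) stood at 0.866, 9.87 and 20.1 CPM in the lowest, median and highest mouse. It was lowest in the female E18.5 mouse and highest in the female P21 mouse, while the male P21 mouse was at 9.87 CPM.

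Among the repressors, Per1 (chr11:69095217-69109960) was highest in the embryonic EC of E18.5. It stood at 89.0 and 74.8 CPM at E18.5, 34.6 and 29.4 at P1, 18.2 and 24.9 at P7, 19.5 and 28.3 at P7 in hyperoxia, and 48.9 and 73.4 at P21. The P1 and P7 mice did not overlap those of E18.5 or P21. Per2 (chr1:91415982-91459324) stood at 16.1 and 5.72 CPM at E18.5, 5.49 and 10.2 at P1, 7.45 and 5.75 at P7, 3.62 and 18.1 at P7 in hyperoxia, and 0.374 and 0.0730 at P21. Both P21 mice lay below all other mice, and a read of Per2 was found in 2.57% and 1.87% of their capillary cells, against 4.37% to 9.70% in the other mice. Per3 (chr4:151003652-151044665) stood at 4.66, 19.3 and 64.0 CPM in the lowest, median and highest mouse, with the lowest value in the male P21 mouse and the highest in the male mouse in hyperoxia. Ciart (chr3:95878503-95882251) stood at 32.1 and 14.98 CPM at E18.5, 53.0 and 13.7 at P1, 83.5 and 64.3 at P7, 58.7 and 85.7 at P7 in hyperoxia, and 71.1 and 101 at P21. All 6 mice of P7 and P21 lay above all 4 younger mice.

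Of the nuclear receptors, Nr1d1 (chr11:98767932-98775333) stood at 0.0939 and 0.774 CPM at E18.5, 5.10 and 0.676 at P1, 1.67 and 3.66 at P7, 6.30 and 8.58 at P7 in hyperoxia, and 11.3 and 15.7 at P21. The P21 mice were the highest in CPM. Their share of cells with a read was not: it was 10.7% and 2.99% at P21, against 5.83% and 12.1% at P7. Nr1d2 (chr14:18204054-18239127) stood at 0.0365, 10.7 and 19.7 CPM in the lowest, median and highest mouse, and was lowest at E18.5 in the male mouse. Of the outputs, Tef (chr15:81802421-81826863) stood at 3.31, 15.2 and 30.0 CPM, with both extremes in the pair of E18.5 mice. Dbp (chr7:45705088-45710203) stood at 0.00730, 1.85 and 11.3 CPM, and the highest value, in the female P21 mouse, was 2.85 CPM without its top cell.

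The first question was whether the members differed between days within a cell class. Reads summed per mouse were compared with edgeR's quasi-likelihood test, and p-values were adjusted by Benjamini-Hochberg over all genes tested. Since the list was selected on these contrasts, the counts are printed and nothing is read from them. No member was called in any of the 7 comparisons of days at an adjusted p under 0.05. In Car4- capillaries this was so for P7 against P1 (called among all genes: 0%) and for P21 against P7 (0.266%). In Car4+ capillaries it was so for P7 against P1 (0%) and P21 against P7 (0.00814%). It was also so for the embryonic cells of E18.5 against Car4- capillaries of P1 (0.494%), and for P1 against E18.5 in proliferative EC (0%) and venous EC (0.0162%). At an unadjusted p under 0.05, the members numbered 1, 3, 1, 0, 1, 0 and 2 in that order of comparisons. DESeq2 called Per1 and Per2 in Car4- capillaries at P21 (all genes: 4.72%), Per3 in Car4+ capillaries at P7 (2.11%), and Nr1d2 and Per3 in venous EC at P1 (4.41%), and no member in the other 4 comparisons. Limma on the mean CPM over cells called none in any of the 7.

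The values with the smallest p in Car4- capillaries at P21 against P7 were those of Per2, Per1 and Clock. The fitted log2 difference of Per2 was -4.81 (SE 1.47, edgeR adjusted p = 0.283). Per1 was higher by 1.65 (SE 0.52, edgeR adjusted p = 0.309), and Clock by 1.04 (SE 0.44, edgeR adjusted p = 0.439). For P7 against P1, Clock was lower by -1.21 (SE 0.44, edgeR adjusted p = 0.390). Per1 was higher in the embryonic cells than at P1 by 1.27 (SE 0.48, edgeR adjusted p = 0.429). Immediate early and dissociation genes, a fixed list of 12 such as Fos, Jun and the heat shock genes Hspa1a and Hspa1b, together stood at 7755 and 9983 CPM at E18.5 and at 8773 and 8534 at P21, against 3179 to 6778 in the other mice. Hspa1a and Hspa1b were called higher at P21 than at P7 (edgeR adjusted p = 0.0421 and 0.0245), as was Klf9, a gene induced by glucocorticoids, by a log2 change of 3.91 (SE 0.61, adjusted p = 0.0258). Per1 was thus highest in the mice with the most reads of dissociation genes, and the part of these genes in its level was not tested.

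Age also moved with the authors' subtype label: Car4- capillaries are split into Early and Late, and 268 of 272 cells of the female and 265 of 268 of the male P21 mouse were Late, while those of P1 and P7 were mostly Early. In Late cells of the female P7 mouse, a read of Per2 was found in 1 of 44 cells (2.27%), and in Early cells of that mouse in 8 of 162 (4.94%). In Late cells at P21 the shares were 2.24% and 1.89%. The CPM of Per2 did not follow these shares. It was 9.22 in Late cells of the female P7 mouse, resting on 1 cell, and 7.20 in its Early cells. In Late cells at P21 it was 0.375 and 0.0741. Label and day cannot be told apart here.

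Members whose pair of mice lay fully apart were also counted, beside the share of all genes for which this held, which is high for 2 mice against 2. In Car4- capillaries 4 of 10 members were apart for P7 against P1 (all genes: 37.7%) and 6 for P21 against P7 (41.1%). In Car4+ capillaries the counts were 3 (27.6%) and 6 (31.5%). They were 3 for E18.5 against P1 (33.1%), 3 for P1 against E18.5 in proliferative EC (35.8%) and 4 in venous EC (33%). An exact permutation test of 2 mice against 2 cannot give a 2-sided p under 0.333.

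Runs of the sequencer offered a comparison within a batch, with 1 mouse per group and no test. In run DC30, CD31-gate capillary cells were from male mice, at E18.5, P7, P7 in hyperoxia and P21. Within it Per2 stood at 5.72, 7.35, 18.1 and 0.0275 CPM in that order, and Per1 at 74.8, 31.8, 28.3 and 79.0 CPM. In run DC23 they were from female mice, at E18.5, P1 and P21, and there Per2 stood at 16.1, 5.62 and 0.458 CPM and Per1 at 89.0, 33.6 and 38.1 CPM. Per2 was thus lowest at P21 within both runs. Per1 was about as high at P21 as at E18.5 in run DC30, and close to its P1 value in run DC23.

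The second question was whether hyperoxia at P7 moved the clock genes. In each of 4 classes no member was called by edgeR against normal air: Car4- capillaries (called among all genes: 0.0136%), Car4+ capillaries (0%), proliferative EC (0%) and venous EC (0%). At an unadjusted p under 0.05 the members numbered 0, 0, 1 and 0. Limma called none, and DESeq2 called Per2 in venous EC alone (all genes: 0.755%), where reads were found in 1 of the 4 mice. The tests of a difference between hyperoxia effects also called no member, for Car4+ against Car4- capillaries (0%), venous EC against Car4- capillaries (0%) and proliferative EC against Car4- capillaries (0%). At an unadjusted p under 0.05 these 3 tests found 0 members, and DESeq2 and limma called none.

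Single members showed the following values. Nr1d1 stood above both normal mice in both hyperoxia mice in 3 of the 4 classes: at 6.30 and 8.58 against 1.67 and 3.66 CPM in Car4- capillaries, at 8.48 and 2.37 against 0.198 and 0.894 in proliferative EC, and at 16.8 and 12.9 against 8.83 and 6.89 in venous EC. In Car4+ capillaries its values were 0 and 11.6 against 13.02 and 4.53 CPM and overlapped. The classes came from the same mice, so a like direction in several classes is not replication. The shares of cells with a read of Nr1d1 overlapped in Car4- capillaries, at 9.15% and 9.85% against 5.83% and 12.1%, and in venous EC, at 13.04% and 20% against 4.76% and 26.1%. In proliferative EC they lay apart, at 8.33% and 16.7% against 1.82% and 5.88%. With cells thinned to 50000 reads the shares of Nr1d1 overlapped in all 4 classes. The fitted log2 change in Car4- capillaries was 1.47 (SE 1.21, edgeR adjusted p = 1.0), so the difference was within the spread between mice. Per2 stood lower in both hyperoxia mice in Car4+ capillaries, at 10.8 and 7.99 against 21.4 and 16.8 CPM, and in proliferative EC, at 1.50 and 1.54 against 17.8 and 4.80 CPM. In thinned cells the share with a read of Per2 was lower in both hyperoxia mice in Car4+ capillaries (5.26% and 5.41% against 7.14% and 20.8%), and overlapped in proliferative EC (5.56% and 3.33% against 5.45% and 5.88%). In Car4- capillaries the values of Per2 overlapped, at 3.62 and 18.1 against 7.45 and 5.75 CPM. Per3, in proliferative EC, stood at 37.4 and 63.0 against 10.2 and 13.1 CPM (log2 change 2.11, SE 0.91, edgeR adjusted p = 1.0). Over all members the pairs lay fully apart for 3 of 10 in Car4- capillaries (all genes: 31.9%), 2 in Car4+ capillaries (28.6%), 5 in proliferative EC (29.8%) and 2 in venous EC (30.5%).

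**Figure D2:**
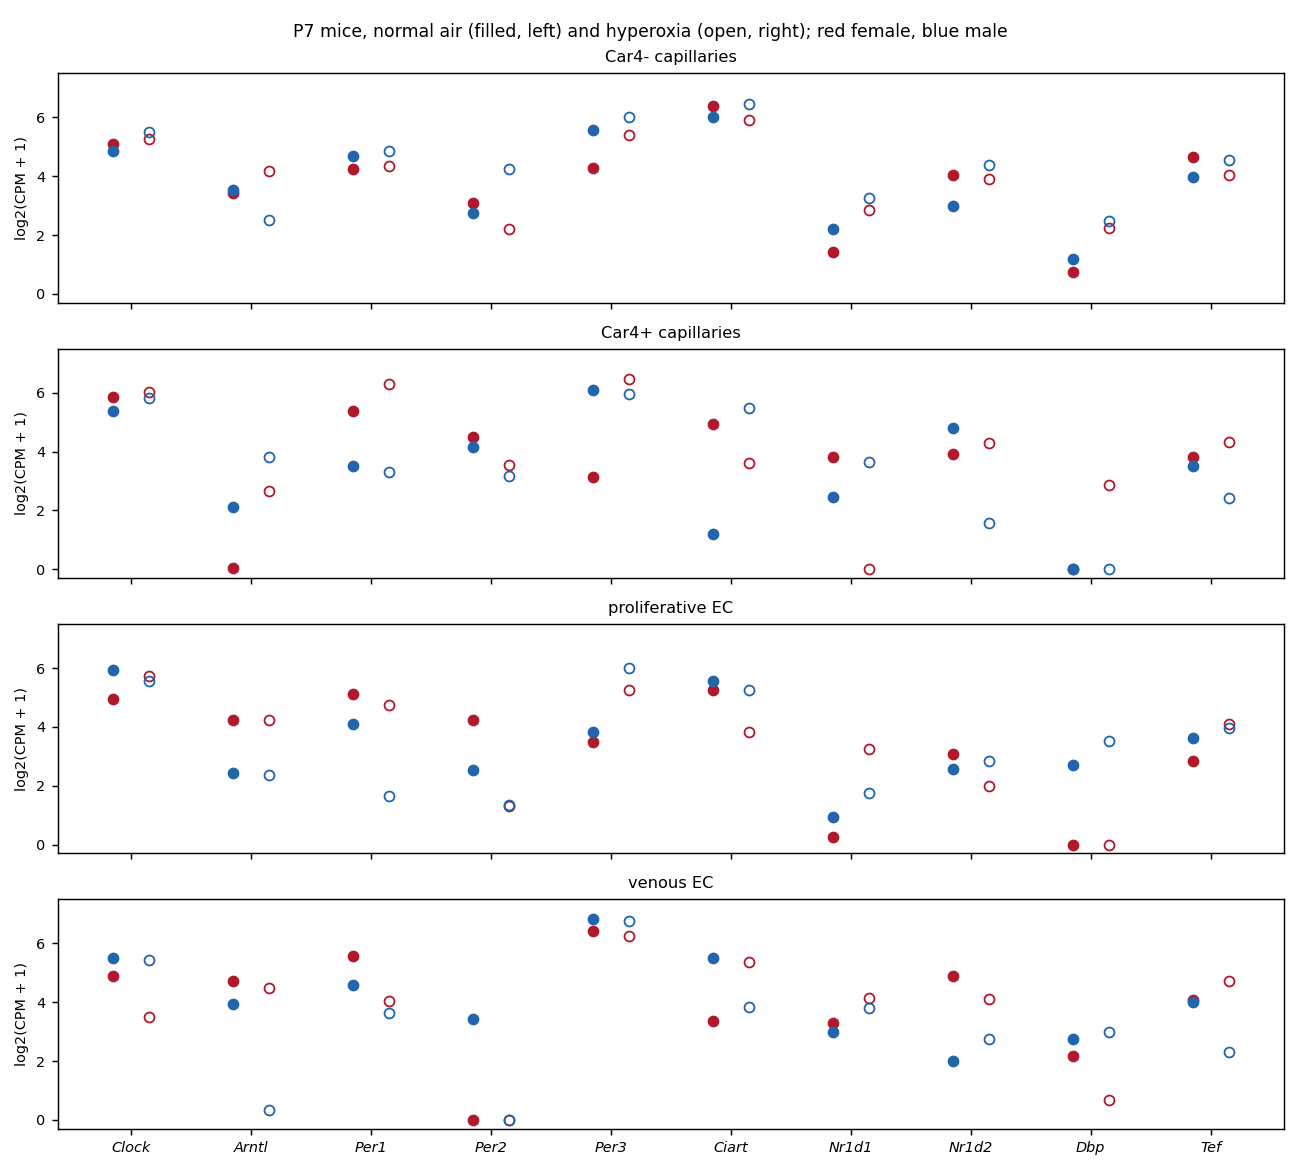
Log2(CPM + 1) of the 10 clock genes (horizontal axis) in 4 cell classes of the P7 mice (panels), with normal air as filled points at left and hyperoxia as open points at right, red for female and blue for male. Nr1d1 lies above both normal mice in both hyperoxia mice in every panel but that of Car4+ capillaries; equal values, such as Per2 at 0 in venous EC, cover each other.

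The third question was how the clock genes differed between cell classes of the same mouse. How the subtype labels were assigned is not given in the sources used here. They are taken as drawn from the expression of these same cells, so these comparisons too describe the classes. In the fit with the mouse as a term, edgeR called 1 member: Per2, in venous EC against Car4- capillaries (called among all genes: 6.98%). None was called in Car4+ capillaries (9.04%), proliferative EC (4.21%) or arterial EC I (0.282%). At an unadjusted p under 0.05 the members numbered 2 in venous EC, 3 in Car4+ capillaries, 0 in proliferative EC and 3 in arterial EC I. DESeq2, which called many more genes, called Ciart and Per2 in venous EC (all genes: 16.8%), Ciart, Per2 and Dbp in Car4+ capillaries (22.3%), none in proliferative EC, and Nr1d2, Tef, Ciart and Per2 in arterial EC I (13.8%). Limma called Ciart and Per2 in venous EC (all genes: 8.36%), Per2 and Dbp in Car4+ capillaries (14.2%), none in proliferative EC and Per2 in arterial EC I (1.23%).

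After birth Per2 was at 0 reads in most venous and arterial EC I sums, and stood higher in Car4+ than in Car4- capillaries; Car4+ capillaries are the type with the carbonic anhydrase Car4. At E18.5 venous EC of the male mouse stood at 30.1 CPM and those of the female mouse at 0. The highest arterial EC I sum of that stage stood at 35.1 CPM. Both values rest on few cells. Over all ages a Per2 read was found in 7 of 203 venous cells and in 2 of 96 arterial EC I cells. In venous EC of 7 postnatal mice, 59 reads in 5 of 177 cells were found (2.82% of cells, 95% exact interval 0.923% to 6.47%), and 5 of the 7 mice had 0 reads. In Car4- capillaries of the same mice a read was found in 74 of 1182 cells (6.26%, 4.95% to 7.79%). The edgeR adjusted p of this difference was 0.0348; the fitted fold depends on the sums at 0 and is not given. Leaving out any of 6 of the 7 mice ended the call, and it held without the male P7 mouse in normal air alone. In arterial EC I of 5 mice, 0 of 65 cells had a read (a count of 3 would be 4.62%, and the exact interval reaches 5.52%), against 56 of 794 Car4- cells (7.05%, 5.37% to 9.06%). The exact intervals overlap in the venous comparison as well as in that of arterial EC I. In Car4+ capillaries Per2 stood at 6.93, 15.9 and 37.1 CPM in the lowest, median and highest of 8 mice, above the Car4- capillaries of the same mouse in 7 of 8 (log2 change 2.38, SE 0.93, edgeR adjusted p = 0.156). The exception was the male mouse in hyperoxia. The exact intervals and limits count cells pooled over mice, so they hold counting error alone and leave out the spread between mice. No class difference is judged from their overlap. Reads of amplified cDNA are also not independent molecules.

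Ciart showed another order after birth, with lower levels outside the Car4- capillaries in most mice. It was lower in Car4+ capillaries than in Car4- capillaries in 7 of 8 mice, by -1.32 on the log2 scale (SE 0.57, edgeR adjusted p = 0.203). It was lower in venous EC in 6 of 7 mice (-1.58, SE 0.50, edgeR adjusted p = 0.102) and in arterial EC I in 5 of 5 (-4.11, SE 1.18, edgeR adjusted p = 0.217). The exception in both Car4+ capillaries and venous EC was the male P1 mouse, whose Car4- capillaries had the lowest Ciart level of all mice, 13.7 CPM. Pooled over the 5 mice of the arterial EC I fit, Ciart stood at 11.9 CPM there and 62.8 in Car4- capillaries, a smaller difference than fitted. Before birth a lower level did not hold in every sum. The highest arterial EC I sum of E18.5 stood at 131 CPM, against 32.1 and 14.98 in the embryonic capillary cells. This sum rests on few cells. A Ciart read was found in 14 of all 96 arterial EC I cells, and 12 of these cells were of the 5 postnatal mice. The share of thinned cells with a read of Ciart was lower in arterial EC I in 8 of 8 mice, both E18.5 mice included.

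**Figure D3:**
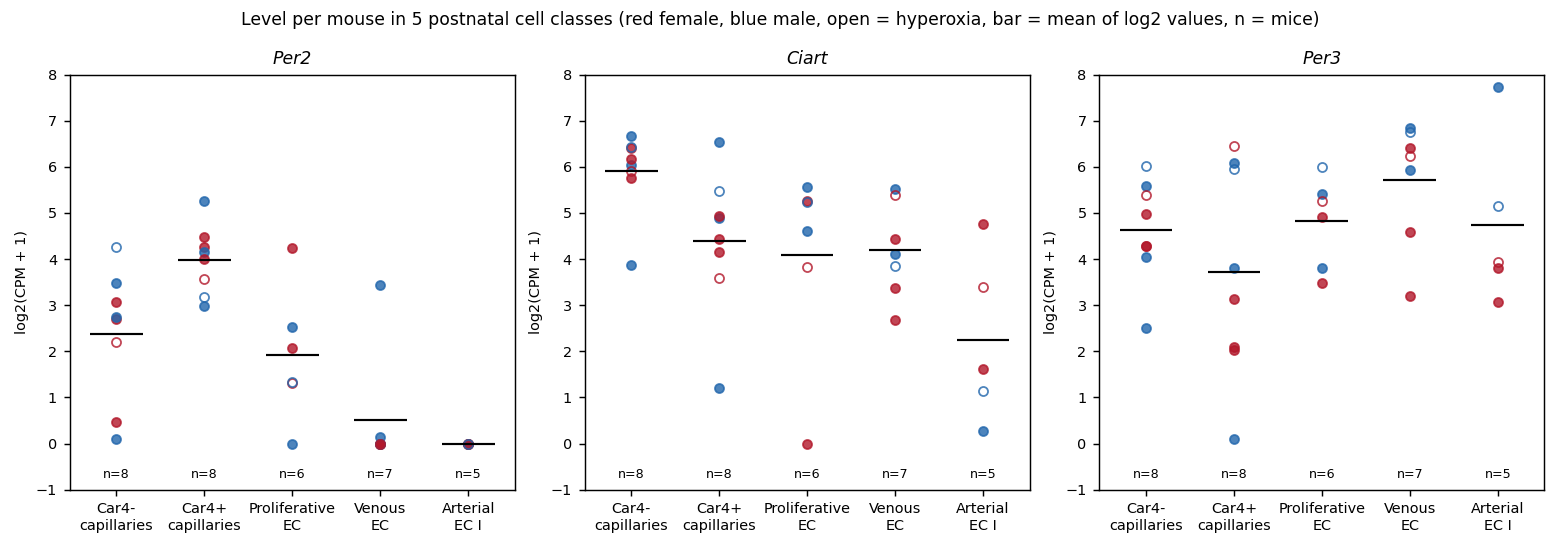
Log2(CPM + 1) of Per2, Ciart and Per3 per mouse in 5 classes of postnatal cells (horizontal axes), with red for female, blue for male, open points for hyperoxia and bars for the mean of the log2 values; n counts mice with at least 8 cells. All 5 arterial EC I sums and 5 of 7 venous EC sums have Per2 at 0 reads.

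Small classes were compared by the share of cells with a read, after each cell was thinned to 50000 reads, within a mouse and against its capillary cells. The arterial EC II, 38 cells of 7 mice, showed the most clock genes per cell, with a mean of 2.43 of the 10 members over all 42 cells of the class, against 1.08 in Car4- capillaries. Per3 was found in 53.8% ± 6.78 (SD, n = 7 mice) of these cells and in 13.9% ± 8.15 of the capillary cells of the same mice, and was higher in 7 of 7 mice. Tef was found in 30.6% ± 12.5 against 10.4% ± 4.89 and Clock in 39.05% ± 19.05 against 26.8% ± 8.72, each higher in 7 of 7 mice. These 3 members were higher in every mouse, against 6.64% of 12418 expressed genes. Nr1d1 was found in 28.3% ± 20.7 against 3.84% ± 2.52 and was higher in 6 of 7 mice. The cells of this class also had more genes with a read than capillary cells in 6 of 7 mice, and the part of this in the shares was not tested. Over all expressed genes the median difference was 5.09 percentage points, and over the 10 members it was 11.2.

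Lymphatic EC, 74 cells of 6 mice, stood next, with a mean of 2.13 members per cell. Clock was found in 50.9% ± 11.3 (SD, n = 6 mice) of cells against 25.1% ± 8.17 of capillary cells, and Per3 in 46.1% ± 27.7 against 14.97% ± 8.38. Both were higher in 6 of 6 mice, against 21.3% of all expressed genes. Tef was found in 31.6% ± 17.9 against 10.02% ± 5.22 and was higher in 5 of 6 mice. Lymphatic cells had more genes with a read than capillary cells in 6 of 6 mice, with medians per mouse of 2719 to 5942 against 2161 to 3238 genes, and the part of this was not tested. The 2 of 10 members higher in every mouse are thus a share close to the background in this class.

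In venous EC, Per1 was found in 33.9% ± 17.5 (SD, n = 10 mice) of cells against 21.04% ± 9.20 of capillary cells and was higher in 10 of 10 mice, the only member of which this held (all expressed genes: 5.5%). Its CPM did not follow, at 0.20 on the log2 scale (SE 0.42, edgeR adjusted p = 0.871). Other measures moved with this share. Venous cells had more genes with a read in 10 of 10 mice. Of the 11 immediate early and dissociation genes tested, 8 were called higher in venous EC by edgeR, among them Fos (log2 change 1.87, SE 0.25) and Junb (1.47, SE 0.18), against 0 lower. Their part in the share of Per1 was not tested. Arterial EC I, the other arterial class, differed in Tef, found in 19.9% ± 4.76 (SD, n = 8 mice) against 10.2% ± 4.59 of capillary cells and higher in 8 of 8 mice (all genes: 1.26%). Ciart was lower there in 8 of 8 mice, at 10.5% ± 8.65 against 20.8% ± 12.3 (all genes: 2.91%). In Car4+ capillaries Per2 was higher in 8 of 8 mice, at 8.57% ± 5.70 against 3.36% ± 2.00 (all genes: 4.07%), and Ciart lower in 8 of 8, at 9.15% ± 3.30 against 24.1% ± 9.02 (all genes: 5.75%). Arterial EC I had more genes with a read than capillary cells in 4 of 8 mice, and Car4+ capillaries in 5 of 8. Of 10 immediate early and dissociation genes tested in Car4+ against Car4- capillaries, edgeR called 5 higher and 0 lower (all genes: 9.04%). Their part in the share of Per2 was not tested. In proliferative EC, Arntl was found in 13.3% ± 5.33 (SD, n = 9 mice) against 5.22% ± 2.80 and was higher in 8 of 9 mice. Proliferative EC had more genes with a read than capillary cells in 9 of 9 mice, and 11.7% of expressed genes were higher there in every mouse. The median difference was 3.35 percentage points over all expressed genes and 0.67 over the members, and the part of the number of genes in the share of Arntl was not tested.

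**Figure D4:**
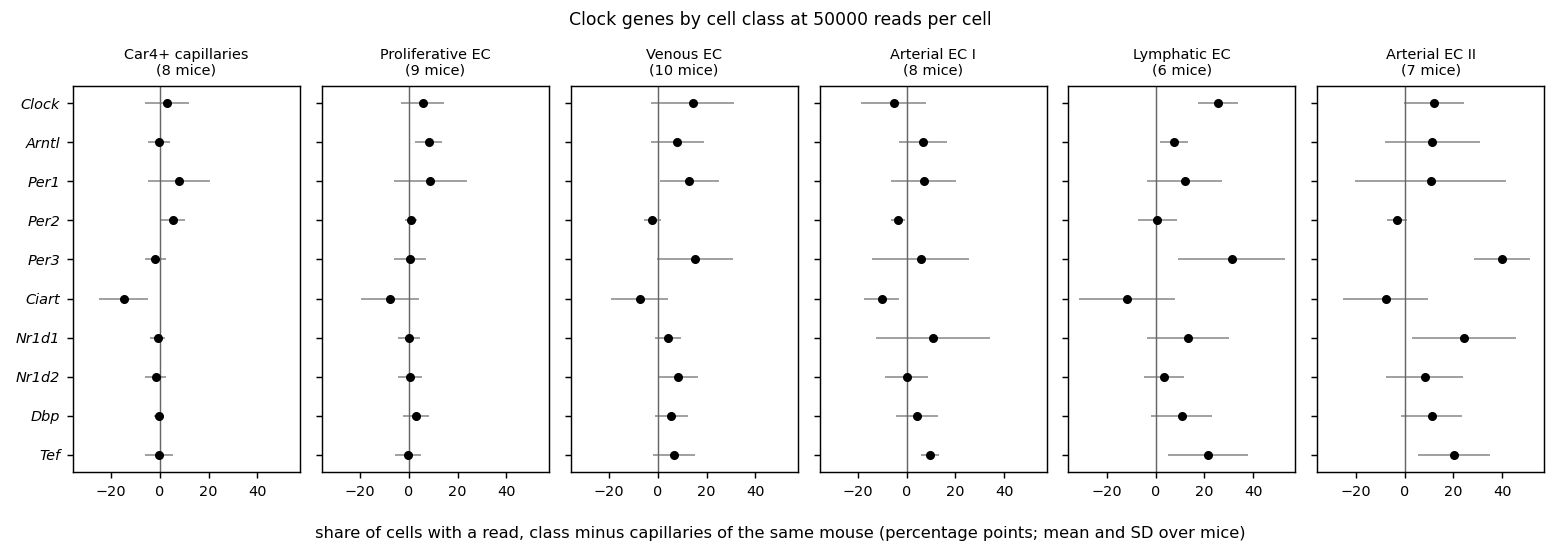
Share of cells with a read at 50000 reads per cell, as the class minus the capillary cells of the same mouse, in percentage points (horizontal axes), for the 10 clock genes (vertical axis) in 6 classes. Points are means and lines the SD over mice; Per3 lies farthest to the right in arterial EC II and lymphatic EC, and Ciart lies left of 0 in all 6 classes.

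Other clock genes were read from fixed lists. Of 15 further genes of the clock machinery, among them Cry1, Cry2, Npas2, Bhlhe40 and Nfil3, 11 could be tested in venous EC against Car4- capillaries, and 1 was called: Bhlhe40, a repressor of the CLOCK and ARNTL pair, was higher by 3.11 on the log2 scale (SE 0.40, edgeR adjusted p = 0.000965). Of all genes 6.98% were called in this comparison, and the 8 immediate early and dissociation genes called higher there moved with Bhlhe40; their part was not tested. The median change of that list was -0.11, against -0.17 over all genes. None of the list was called in the other 18 comparisons. Of 8 output genes that cycle in many tissues, Lonrf3 was lower in venous EC and in Car4+ capillaries (edgeR adjusted p = 0.00580 and 0.00666), and Tsc22d3, which glucocorticoids also induce, was higher in Car4+ capillaries by 0.80 (SE 0.17, edgeR adjusted p = 0.0102). Of all genes 9.04% were called in Car4+ capillaries. The 5 immediate early and dissociation genes called higher there moved with Tsc22d3, and their part was not tested. In Car4- capillaries in hyperoxia the median change was -0.25 over 14 genes of the machinery and 0.07 over 8 output genes, against 0.47 over the 10 members and -0.01 over all genes. None of these genes was called in hyperoxia. The largest fitted log2 changes of the machinery there were 7.82 for Arntl2 (SE 3.31) and 6.28 for Npas2 (SE 3.23), and the smallest was -5.58 for Fbxl21 (SE 2.57). Their SE are large, so no size of a change is read from these 3 fits. Of 8 glucocorticoid-responsive genes, Klf9 at P21 was the only call, and the median change of that list in Car4- capillaries at P21 was 1.82, against 0.06 over all genes.

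Over the 10 capillary sums, pairs of members correlated in both directions, and whether the members share a pattern was not tested. Of the 45 pairs of members, 25 correlated positively and 20 negatively on the log2 scale, with a median Pearson r of 0.10 (from -0.67 for Per2 and Nr1d1 to 0.77). These are descriptions over 10 sums that differ in depth, run and age. The genes most like Arntl over the 10 sums, among 8558 ranked, were Vmac (r = 0.95), Asb13 (0.92), Slc25a46 (0.91), Osbpl2 (0.90) and Nedd4l (0.90). Those most like Dbp were Lpin2 (0.95), Pard3 (0.92), Cd27 (0.89), Acvrl1 (0.88) and Abhd11 (0.88).

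Sex was the 1 contrast that had no part in the choice of the list. No member was called between male and female mice by edgeR, at an unadjusted p under 0.05 there were 0, and DESeq2 and limma called 0. Among 13144 genes 5 were called (0.038%). The change nearest the threshold was that of Tef, -0.91 in male against female mice (SE 0.61, edgeR adjusted p = 0.744), and the largest was that of Nr1d2, -1.41 (SE 0.97, edgeR adjusted p = 0.750). Apart from DC36, no sequencing run held capillary cells of both sexes, so sex and run cannot be told apart.

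The P21 mice gave a check within a mouse, because their Car4- capillaries came through 2 sort gates, named CD31 and mesench in the labels, each in its own sequencing run but for single cells. Nr1d1 stood at 3.73 CPM in the CD31 gate and 48.1 in the gate labelled mesench of the female mouse, and at 25.5 and 1.57 CPM in the male mouse. The shares of cells with a read did not differ in that way, at 10.4% (95% exact interval 6.71% to 15.2%) and 12% (4.53% to 24.3%) in the female mouse and 2.17% (0.595% to 5.47%) and 4.82% (1.33% to 11.9%) in the male. Ciart stood at 71.5 and 74.1 CPM in the gates of the female mouse and at 58.3 and 162 in those of the male. Per2 stood at or under 0.458 CPM in all 4 sets of cells. The CPM of Nr1d1 thus differed between the gates of 1 mouse in opposite directions in the 2 mice, while the intervals of the shares overlapped.

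**Figure D5:**
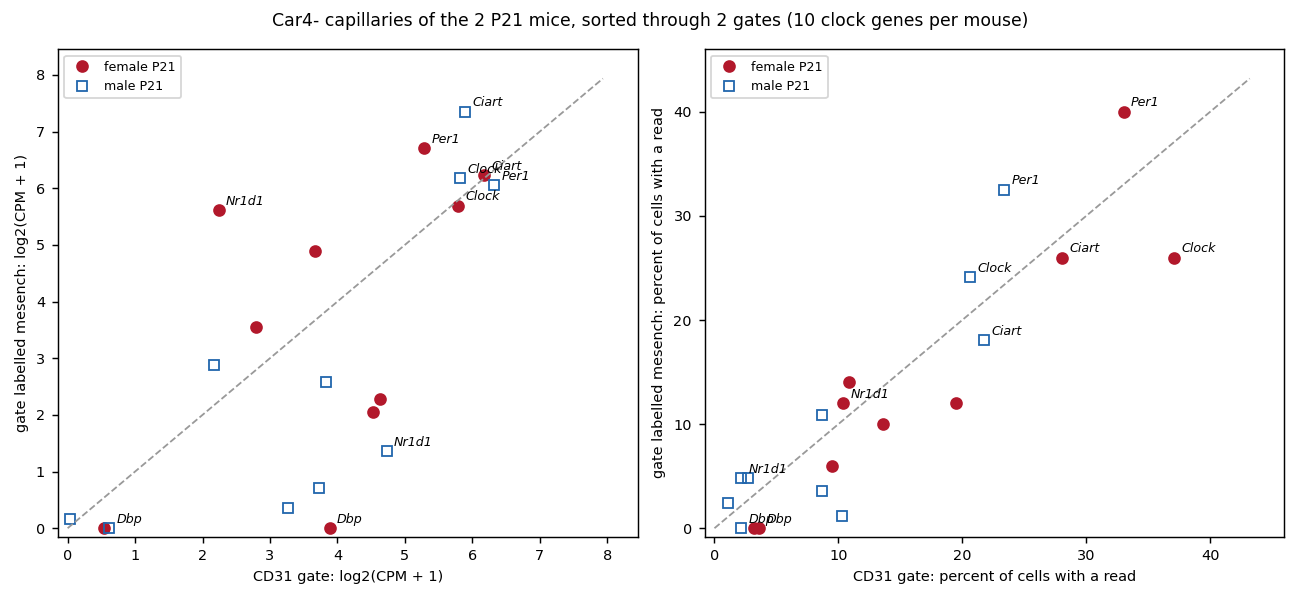
Car4- capillaries of the female (filled circles) and male (open squares) P21 mouse, with the CD31 gate on the horizontal and the gate labelled mesench on the vertical axis, as log2(CPM + 1) at left and as the percent of cells with a read at right. The dashed line marks equal values; Nr1d1 lies far above it in the female and far below it in the male mouse at left, and close to it at right.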

How the data were processed

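The authors deposited whole-number counts of reads per gene and cell, with no normalization, and a table of labels per cell. The counts hold no molecular identifiers. Per the submitters' processing notes, the tools were STAR 2.5.2b and HTSeq 0.10 and the build name given is GRCh38, which is a human build; the build behind the mouse counts is not settled, and gene positions are those of GENCODE M21 on GRCm38. The members and all gene lists were chosen with earlier results of these data known.

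The authors' subtype labels were used as they stand, Early and Late Car4- capillaries together. Reads were summed per mouse and class where a mouse had at least 8 cells. Sums were tested with edgeR 4.0.16 (TMM, filterByExpr, glmQLFit and glmQLFTest) with all groups of a class in 1 model, the class comparisons with the mouse as a term, and the sex comparison with the group as a term. P-values were adjusted by Benjamini-Hochberg over the genes tested, with calls under 0.05. The code was tested on simulated data. DESeq2 1.42.0, limma 3.58.1 on log2 of the mean CPM + 1, other normalization, no filter, CD31-gate cells alone, thinned cells and leaving out each mouse were alternatives. Shares of cells use cells thinned to 50000 reads (11 shallower cells left out) and mice with at least 4 cells of a class; expressed genes had a read in at least 1% of cells. Intervals are exact (Clopper-Pearson), on counts of cells. R 4.3.3 and Python were used. All 10 members are named; genes like Arntl and Dbp are the 5 with the highest Pearson r of log2(CPM + 1) with a mean of at least 10 CPM, leaving out predicted genes; of other lists, called genes are named, and in hyperoxia those of the machinery with the 2 largest and 2 smallest changes, of which 1 is not reported here.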

Additional observations from a re-analysis of the deposited data

Results flagged for a closer look

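Nr1d1, at P21 against P7, had values that differed in opposite directions in the pair of capillary classes. In Car4- capillaries both P21 mice stood above both P7 mice (fitted log2 change 2.48), and in Car4+ capillaries both stood below (-3.41). The difference between these effects was not tested, and neither change was called by edgeR (adjusted p = 0.510 and 0.984). In Car4+ capillaries a read of Nr1d1 was found in 3 and 6 cells of the P21 mice and in 2 and 3 cells of the P7 mice, so the Car4+ values rest on few cells. The Car4- difference did not hold in CD31-gate cells alone. There the female P21 mouse stood at 3.73 CPM, below the male P7 mouse at 4.68. In the male P21 mouse a read was found in 8 Car4- cells, and 57.9% of its reads came from 1 cell.

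Arntl, at P1 against E18.5, also differed in opposite directions in a pair of classes. Both P1 mice stood above both E18.5 mice in proliferative EC (fitted log2 change 1.50) and below them in venous EC (-2.71). The difference was not tested, and neither change was called by edgeR (adjusted p = 0.797 and 0.611). A read of Arntl was found in 3 of 13 and 3 of 9 proliferative cells of the P1 mice, and in 2 of 11 and 3 of 11 venous cells of the E18.5 mice, so both values rest on few cells.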

How the results depend on the processing

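The count of called members changed with the tool more than with any other setting. DESeq2 gave 2 members in Car4- capillaries at P21 against P7 (all genes: 4.72%), 1 in Car4+ capillaries at P7 against P1 (2.11%), 2 in venous EC at P1 against E18.5 (4.41%) and 1 in venous EC in hyperoxia (0.755%). It gave 3 in Car4+ against Car4- capillaries (all genes: 22.3%), 2 in venous EC (16.8%) and 4 in arterial EC I (13.8%). In these edgeR gave 0 (9.04%), 1 (6.98%) and 0 (0.282%). Limma on the mean CPM over cells gave 2 (14.2%), 2 (8.36%) and 1 (1.23%) in these 3. The cause was not tested; DESeq2 also called more genes of all kinds, 692 against 39 in Car4- capillaries at P21 against P7, 259 against 0 in Car4+ capillaries at P7 and 543 against 2 in venous EC at P1. Among the P1, P7, P7 hyperoxia and P21 mice, same-sex mice did not deviate together in Car4- capillaries (6 correlations from -0.014 to 0.0546); the E18.5 mice were not checked. With the replicate block, the sex of the mouse as a term, the members called stayed at 0 in all 11 comparisons of groups. Without each mouse in turn the count ran from 0 to 1 in venous EC against Car4- capillaries and from 0 to 1 in venous EC at P1 against E18.5 (Per3, without the male E18.5 mouse), and was 0 throughout elsewhere. RLE normalization, no filter on low counts, CD31-gate cells alone and thinned cells kept every count of members; with thinned cells the called member in venous EC was Ciart in place of Per2. No log2 change with an unadjusted p under 0.05 changed sign under any alternative run. The shares of cells were also taken from all reads, with at least 3 thinned reads, in CD31-gate cells alone and without each mouse. These alternatives were chosen after seeing the data, and no mean difference named changed sign. In some cases fewer mice shared the direction. In others as many or more did, such as Arntl in proliferative EC with all reads (higher in 9 of 9 mice). With all reads Per1 in venous EC was higher in 8 of 10 mice (mean difference 18.3 percentage points), Clock in arterial EC II in 6 of 7 (14.8), Tef in arterial EC I in 7 of 8 (7.02), Per2 in Car4+ capillaries in 7 of 8 (5.54), and Ciart in arterial EC I lower in 7 of 8 (-9.48). Per3 in arterial EC II (38.0) and lymphatic EC (31.8), Tef in arterial EC II (26.0), Clock in lymphatic EC (33.1) and Ciart in Car4+ capillaries (-16.7) kept their direction in all mice. With at least 3 thinned reads most differences were smaller: in lymphatic EC 17.2 for Clock and 9.98 for Tef, in proliferative EC 4.13 for Arntl, in venous EC 7.64 for Per1, and in arterial EC I -6.19 for Ciart (lower in 6 of 8 mice) and 7.55 for Tef (higher in 6 of 8). Tef in arterial EC II was then higher in 6 of 7 mice, Clock there in 5 of 7, and Ciart in Car4+ capillaries lower in 7 of 8.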
